A study of Arabidopsis thaliana with 15 samples.

Results

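The 145 loci described here lie at the distal end of Arabidopsis thaliana chromosome 4, around the gene SHL (AT4G39100). They are all loci of the 33602 in the count tables with a locus number from AT4G38890 to AT4G40090, apart from 2 that were left out. The set is therefore defined by position and not by function. It was chosen with results of these data known, and the rule does not name the contrasts behind the choice. A high share of calls around SHL between the seedlings labelled ebs shl and wild type (WT) was among those results, so that contrast, and those of the seedlings labelled ebs shl lhp1 with WT and emf1, are given as a description with nothing read from their counts. By the TAIR10.1 annotation the set holds 129 protein-coding genes, 6 tRNA genes, 4 small nucleolar RNA (snoRNA) genes and 3 long and 2 other non-coding RNA genes, and 1 locus had no match.

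Messenger RNA was sequenced from whole seedlings of the Col-0 accession, aged 3 weeks and grown with 8 h of light and 16 h of darkness a day. With 3 biological repeats each, WT was sequenced beside 4 mutants, labelled lhp1, emf1, ebs shl and the triple ebs shl lhp1. The labels give no alleles. RNA of the 9 WT, lhp1 and ebs shl libraries came from the RNeasy Plus Mini kit and RNA of the 6 ebs shl lhp1 and emf1 libraries from the miRNeasy Micro kit. A comparison across the kits holds kit and genotype together, and these cannot be told apart in it. Libraries labelled ebs shl are named the nominal double mutant here and those labelled ebs shl lhp1 the nominal triple mutant, because their SHL transcript was not lowered and LHP1 was not lowered in the latter (18.6 to 20.8 CPM in WT, 19.3 to 23.4 in the nominal triple mutant). EBS was low in both, at 1.67 to 3.37 CPM against 24.1 to 27.4 in WT. EMF1 stood at 21.8 to 23.9 CPM in the libraries labelled emf1, a little under the 27.5 to 28.7 in WT. It stood above WT in lhp1 (43.6 to 49.6 CPM), the nominal triple mutant (71.8 to 87.1) and the nominal double mutant (116 to 121). The label emf1 is used as given. Counts per locus do not show whether a transcript was intact. Whether the function of SHL, LHP1 or EMF1 was lost in the seedlings so labelled was not tested. Whether repeats came from separate seedling batches is not stated, so p-values measure the spread between these libraries.

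SHL encodes a protein with a PHD finger and a bromo-adjacent homology domain, 2 folds that read marks on histone H3. With its relative EBS it is known to repress flowering in Arabidopsis. LHP1 and EMF1 belong to the Polycomb system, which keeps developmental genes silent through methylation of histone H3. The neighbours of SHL have varied roles. Among them are the brassinosteroid receptor BRI1, the starch synthesis gene APL3, the cellulose synthase CESA2, a pair of histone H3 genes, a row of kelch-repeat F-box genes and a small snoRNA cluster.

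Levels are given in CPM, counts scaled to the normalised size of the library, and a single count was worth 0.0558 to 0.0949 CPM. Libraries held 11730989 to 16247262 counts. Of the 145 loci, 114 had enough counts to be tested and 31 had not. A locus is said to be called when its adjusted p was under 0.05 in the quasi-likelihood test of edgeR, after Benjamini-Hochberg adjustment over all 20477 tested loci. Of 3 leaf markers, RBCS1A stood at 8410 CPM or more in every library, LHCB1.3 at 14780 or more and CAB3 at 2583 or more. Their levels differed between genotypes. RBCS1A and LHCB1.3 were highest in emf1, at 15470 to 16770 and 23620 to 25210 CPM against 10070 to 10510 and 18980 to 19360 in WT. CAB3 was lowest in the nominal triple mutant, at 2583 to 3783 CPM against 5286 to 6339 in WT. The root markers IRT1 and COBL9 stood at 0 to 0.372 CPM in the nominal triple mutant and emf1, against 17.6 to 43.2 and 2.45 to 4.98 CPM in the other 9 libraries, whereas PYK10 stood at 1206 or more in all 15. PYK10 was highest in the nominal triple mutant, at 2320 to 3094 CPM against 1260 to 1492 in WT and 1206 to 1329 in emf1. In whole seedlings, fewer cells of a type and less RNA per cell cannot be told apart, and the part of tissue make-up in the values below was not tested.

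SHL itself stood at 38.1, 43.6 and 41.2 CPM in the 3 WT libraries, 41.5, 37.5 and 45.2 in lhp1 and 204, 225 and 221 in the nominal double mutant. Its level in the nominal triple mutant was 192, 222 and 159.9 CPM and in emf1 77.6, 68.4 and 80.6. WT and lhp1 overlapped, emf1 lay above both, and the 6 libraries with the shl label lay above all others. The mean was 5.29-fold higher in the nominal double mutant than in WT (log2 fold change 2.40, SE 0.12) and 2.53-fold higher in the nominal triple mutant than in emf1 (log2 fold change 1.34, SE 0.12). Between the nominal triple and double mutants the log2 difference was -0.18 (SE 0.11; adjusted p = 0.17, edgeR), which did not pass the threshold. It passed under upper-quartile scaling (-0.36, adjusted p = 0.0091, edgeR) and without replicate 2 of the nominal triple mutant (-0.29, adjusted p = 0.044, edgeR).

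**Figure D1:**
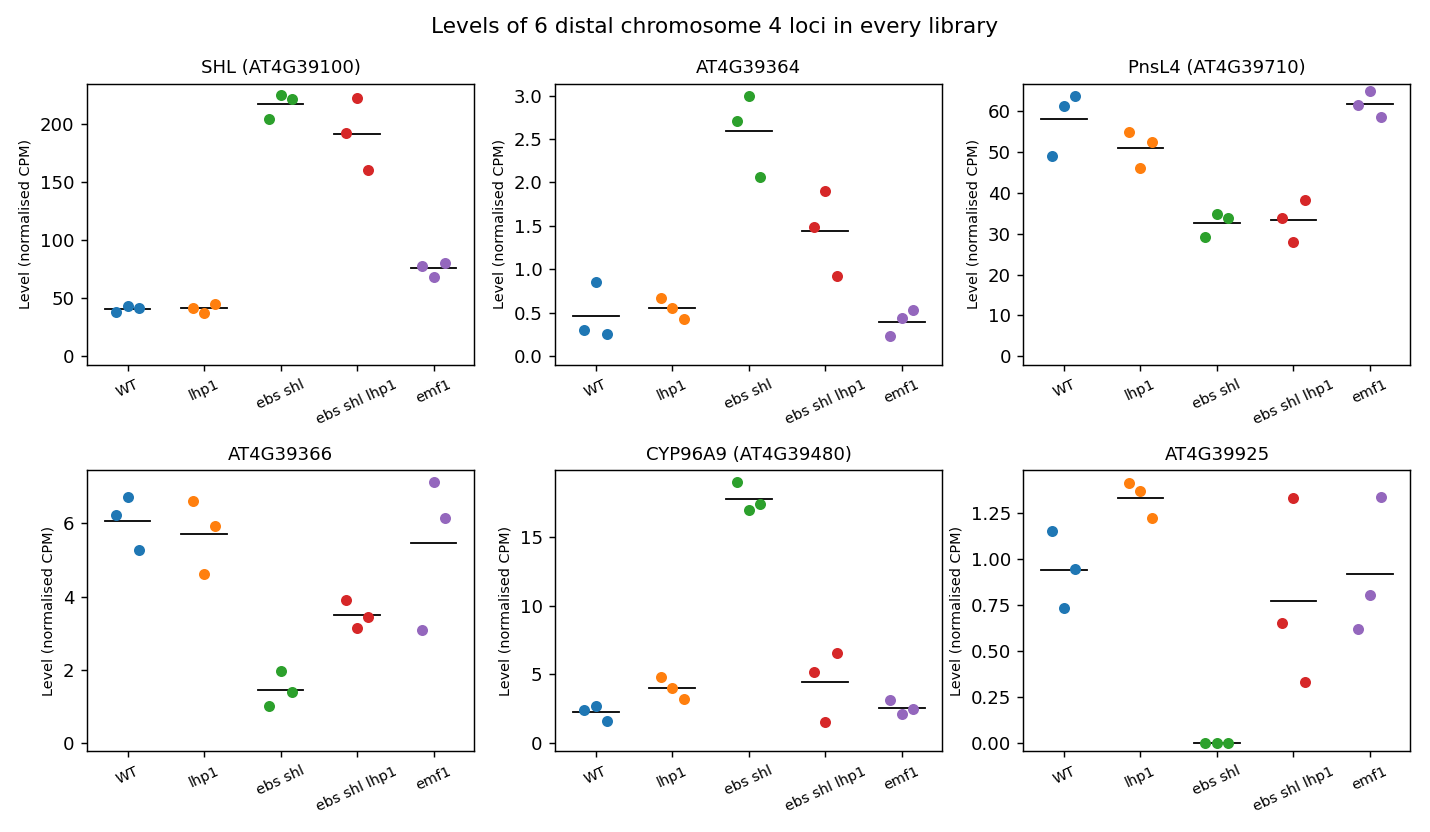
Level (normalised CPM, linear axis) of SHL and 5 of its neighbours in each of the 15 libraries; points are libraries and bars are genotype means. The 6 libraries labelled ebs shl or ebs shl lhp1 held 160 to 225 CPM of SHL and the other 9 held 37.5 to 80.6, and AT4G39925 had no count in the 3 libraries of the nominal double mutant.

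Between the nominal double mutant and WT, 29 of the 114 tested loci were called, 10 higher and 19 lower. This was 25.4% of them, where 7.83% of all tested loci were called (5.31% higher and 2.52% lower). Since the set was chosen with this contrast known, the share is printed beside the background and read no further. In order along the chromosome, the called loci were 4 of 17 tested from AT4G38890 to AT4G39090, 4 of 19 from SHL to AT4G39300, and 6 of 17 from AT4G39310 to AT4G39500. Further out they were 3 of 18 up to AT4G39700, 4 of 20 up to AT4G39900 and 8 of 23 up to AT4G40090. Called loci were thus found in each of the 6 stretches, on both sides of SHL, and 85 tested loci between them were not called. In 9 of the 29 the call was lost when 1 WT or nominal double mutant library was left out, and the count then ranged from 22 to 28. The median log2 fold change of the 114 was -0.04, against -0.0026 for all tested loci, and the median absolute value was 0.23 against 0.17.

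**Figure D2:**
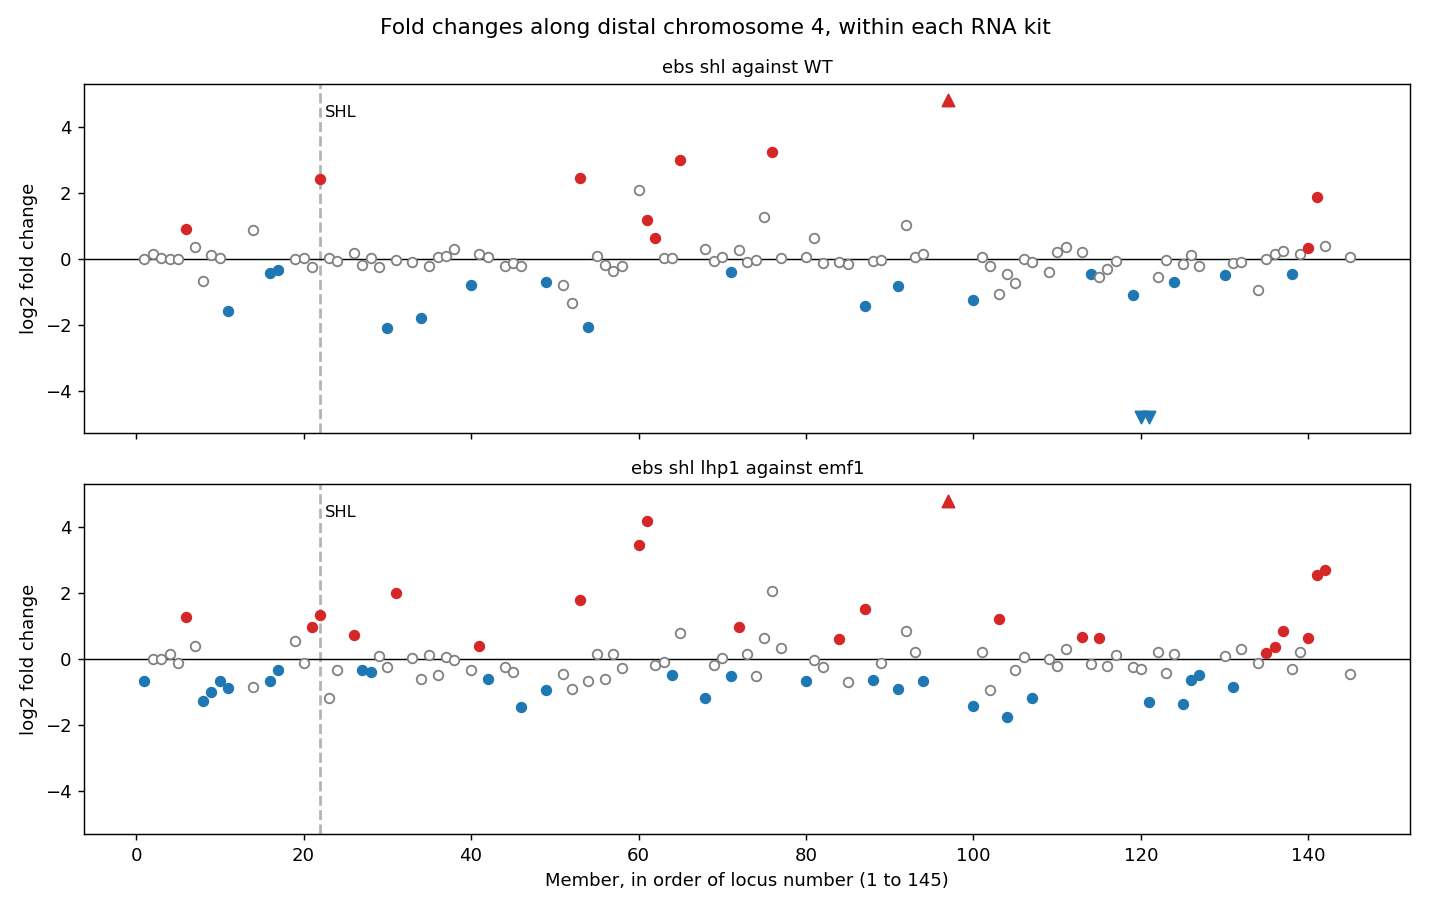
Log2 fold change (linear axis) of the 114 tested loci in order of locus number, for the nominal double mutant against WT (top) and the nominal triple mutant against emf1 (bottom); filled points were called, red higher and blue lower, open points were not, and triangles at the axis ends mark loci with 0 counts in one group. Called loci lie on both sides of SHL (dashed line) among uncalled ones in both panels.

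Among loci with a higher level in the nominal double mutant, CYP96A9 (AT4G39480), a cytochrome P450 gene, had the largest difference of those with 5 CPM or more. It stood at 2.42, 2.69 and 1.63 CPM in WT, 4.82, 4.04 and 3.23 in lhp1 and 19, 17 and 17.4 in the nominal double mutant. The nominal triple mutant held 5.21, 1.52 and 6.54 CPM and emf1 3.17, 2.11 and 2.49. The 3 libraries of the nominal double mutant lay above the other 12, by 7.88-fold over WT in the mean. Its tandem neighbour CYP96A12 (AT4G39510) differed from this pattern, with 42.8, 42.2 and 56 CPM in WT and 54.9, 60.8 and 55.7 in the nominal double mutant. In the nominal triple mutant CYP96A12 held 1.77, 2.47 and 5.81 CPM and in emf1 5.71, 12.2 and 5.6, below the other 9 libraries. CYP96A10 and CYP96A11, which lie between them, had 0 to 8 counts per genotype and were not tested.

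The kelch-repeat F-box genes, whose kind of protein picks targets for ubiquitin ligases, form a row from AT4G39550 to AT4G39600. AT4G39590 stood at 0.242, 0.183 and 0.251 CPM in WT, 0.223, 0.373 and 0 in lhp1 and 2.58, 1.9 and 2.12 in the nominal double mutant. In the nominal triple mutant it held 0.279, 0.0949 and 0.066 CPM and in emf1 0, 0.0728 and 0, so that the nominal double mutant lay above the other 12 libraries. Over WT its mean was 9.45-fold higher. Its neighbour AT4G39580 was instead highest in the nominal triple mutant, with means of 0.734 ± 0.417 CPM in WT, 1.75 ± 0.463 in the nominal double mutant, 7.39 ± 2.79 in the nominal triple mutant and 4.76 ± 3.44 in emf1 (SD, n = 3). The other genes of the row were not called in the nominal double mutant, with log2 fold changes of 0.25 for AT4G39550, -0.10 for AT4G39560, -0.05 for AT4G39570 and 0.00 for AT4G39600. A further kelch-repeat gene, AT4G39753, had 0 counts in WT and in emf1, 9 in lhp1, 30 in the nominal double mutant and 32 in the nominal triple mutant. That is at least 10.3-fold higher in the nominal double mutant than in WT and at least 11.1-fold higher in the nominal triple mutant than in emf1, when a group without counts is set to 3 counts in all.

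The 4 snoRNA genes lie in a cluster (AT4G39361, AT4G39363, AT4G39364 and AT4G39366). Such RNAs guide the chemical modification of ribosomal RNA. AT4G39364 stood at 0.302, 0.855 and 0.251 CPM in WT, 0.667, 0.56 and 0.427 in lhp1 and 2.7, 3 and 2.06 in the nominal double mutant. With the triple label it held 1.49, 1.9 and 0.924 CPM, and in emf1 0.232, 0.437 and 0.534. All 6 libraries with the shl label thus lay above the other 9, with a mean 5.4-fold that of WT in the nominal double mutant. AT4G39366, its neighbour, differed the other way, with 6.23, 6.72 and 5.28 CPM in WT, 6.6, 4.61 and 5.91 in lhp1 and 1.01, 1.98 and 1.4 in the nominal double mutant. It held 3.91, 3.13 and 3.43 CPM in the nominal triple mutant and 3.09, 7.14 and 6.14 in emf1. The nominal double mutant lay below the other 12 libraries, 4.19-fold under WT in the mean. AT4G39361 and AT4G39363 were not called, with means of 2.94 ± 0.534 and 1.82 ± 0.658 CPM in WT and 1.67 ± 0.372 and 0.716 ± 0.0216 in the nominal double mutant. These levels rest on few counts. The 4 genes are annotated at 120 to 122 bases, and the libraries were made for messenger RNA. Whether the counts give the levels of the snoRNAs themselves was not tested. Differences across the 2 RNA kits hold kit and genotype together here as well.

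A pair of adjacent loci further out, AT4G39925 (annotated with an AT hook DNA-binding motif) and AT4G39930 (uncharacterised), had no count in any of the 3 libraries of the nominal double mutant. AT4G39925 held 46 counts in WT, 61 in lhp1, 26 in the nominal triple mutant and 34 in emf1. For AT4G39930 these were 20, 26, 15 and 38. With the group set to 3 counts in all, AT4G39925 was at least 14.9-fold and AT4G39930 at least 6.48-fold lower in the nominal double mutant than in WT. Every library of the other 4 genotypes held counts of both, so the nominal triple mutant did not share the absence.

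Loci of metabolism and growth were among those with a lower level in the nominal double mutant. APL3 (AT4G39210), a large subunit of the enzyme that makes ADP-glucose for starch, stood at 31.1, 28 and 42 CPM in WT, 48.2, 38.1 and 37.2 in lhp1 and 9.37, 9.95 and 9.65 in the nominal double mutant. In the nominal triple mutant it stood at 3.07, 1.71 and 2.84 and in emf1 at 1.85, 7.72 and 1.87. Each of the 3 last genotypes lay below every WT and lhp1 library. SEC14 (AT4G39180), which codes for a phosphatidylinositol transfer protein, held 5.92, 6.41 and 6.16 CPM in WT and 1.57, 0.951 and 1.67 in the nominal double mutant, 4.34-fold lower in the mean. SEC14 overlaps AT4G39170 on the opposite strand, and since the strand setting of the counting is not given in the sources used here, the levels of both are uncertain. CCR1 (AT4G39260), a cold- and clock-regulated RNA-binding protein gene, stood at 272 ± 45.9 CPM in WT, 154 ± 25.3 in the nominal double mutant, 132 ± 4.09 in the nominal triple mutant and 164 ± 17.9 in emf1 (SD, n = 3).

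POR (AT4G39920), which codes for a tubulin-folding cofactor, was low in the nominal double mutant alone, at 3.9, 3 and 3.96 CPM against 8.7, 7.14 and 7.41 in WT, 9.2, 8.46 and 9.08 in lhp1, 5.86, 8.45 and 7.72 in the nominal triple mutant and 7.49, 9.25 and 8.98 in emf1. AT4G38980, an uncharacterised gene, stood at 2.83, 3.73 and 2.85 CPM there against 8.58, 8.55 and 11.1 in WT and 10.7, 7.02 and 8.78 in the nominal triple mutant. The emf1 libraries held 16.1, 15.9 and 15.9 CPM of it. TPPH (AT4G39770), a trehalose-phosphate phosphatase gene, held 20.0 ± 2.23 CPM in WT, 10.8 ± 1.93 in lhp1, 8.37 ± 0.873 in the nominal double mutant, 2.72 ± 1.64 in the nominal triple mutant and 7.28 ± 1.93 in emf1 (SD, n = 3). Its call in the nominal double mutant was lost without WT replicate 3 or replicate 2 or 3 of the nominal double mutant.

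All 15 libraries were then set side by side to see which genotypes stood apart. The 3 libraries of the nominal double mutant lay apart from the other 12 in 17 of the 114 tested loci, 5 higher and 12 lower. That is 14.9%, against 4.06% of all tested loci (2.87% higher and 1.19% lower). Besides CYP96A9, AT4G39590 and AT4G39364, the higher ones were AT4G39420, a spatacsin-like gene, and AT4G39720, which codes for a VQ motif protein. The lower ones included SEC14, AT4G39366, POR, AT4G38980, AT4G39925, AT4G39930 and SK2, a shikimate kinase gene of aromatic amino acid synthesis. The 3 libraries of the nominal triple mutant lay apart from the other 12 in 31 loci (27.2% against 26.1%), those of emf1 in 11 (9.65% against 15.9%), of lhp1 in 4 (3.51% against 3.89%) and of WT in 5 (4.39% against 3.35%). The nominal triple mutant and emf1 together lay apart from the other 9 libraries in 42 loci, 21 higher and 21 lower, or 36.8% against 39.9% (18.5% higher and 21.4% lower). A locus can be in several of these sets and of those below, as AT4G39364, RD19 and VHA-A3 are, so they are not separate classes. These sets were built on the same libraries as the choice of loci, so the counts are a description.

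The nominal double and triple mutants together lay apart from the other 9 libraries in 6 loci, which was 5.26%, against 2.89% of all tested loci (1.97% higher and 0.918% lower). SHL, AT4G39364, AT4G39753 and WRKY13 were higher and CESA2 and PnsL4 lower. PnsL4 (AT4G39710), a subunit of the chloroplast NADH dehydrogenase-like complex, stood at 49, 61.2 and 63.8 CPM in WT, 55, 46 and 52.4 in lhp1 and 61.6, 64.9 and 58.7 in emf1. It held 29.2, 34.8 and 33.8 CPM in the nominal double mutant and 33.8, 27.9 and 38.2 in the nominal triple mutant, levels that overlapped each other and no other genotype. Its mean was 1.78-fold lower in the nominal double mutant than in WT and 1.85-fold lower in the nominal triple mutant than in emf1.

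CESA2 (AT4G39350), a catalytic subunit of cellulose synthase in primary cell walls, stood at 259, 247 and 231 CPM in WT, 206, 181 and 200.1 in lhp1 and 201, 178 and 169.6 in emf1. The nominal double mutant held 139, 162 and 146 CPM and the nominal triple mutant 102, 91.8 and 96.5. WRKY13 (AT4G39410), a transcription factor gene, held 0.786, 1.83 and 1.07 CPM in WT, 0.742, 1.24 and 1.34 in lhp1 and 0.309, 0.291 and 0.267 in emf1. It reached 3.21, 2.85 and 2.34 CPM in the nominal double mutant and 4.28, 7.4 and 4.56 in the nominal triple mutant. Its call against WT in the nominal double mutant did not survive leaving out WT replicate 1 or 3 or any single library of that mutant.

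The nominal triple mutant could be compared with emf1 within the same RNA kit. Of the 114 loci 49 were called, 22 higher and 27 lower, which was 43% against 44.1% of all tested loci (23.6% higher and 20.5% lower). The nominal double mutant against WT shares no library with this comparison. Among loci called in both, the direction was the same for 15, 7 higher and 8 lower, and opposite for 1. These 15 were 13.2% of the tested loci, against 4.79% of all tested loci (3.44% higher and 1.35% lower, with 0.42% opposite). They were 51.7% of the 29 calls of the nominal double mutant and 30.6% of the 49 of the nominal triple mutant, where over all loci the shares were 61.1% and 10.9%. Both comparisons may have played a part in the choice of loci, so these shares are a description.

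Besides SHL, AT4G39364, AT4G39753 and WRKY13, the loci higher in both were the non-coding RNA loci AT4G38932 and AT4G40065 and the homeobox gene HB16 (AT4G40060). AT4G40065 stood at 1.21, 1.53 and 0.817 CPM in WT, 2.15, 2.18 and 2.74 in lhp1 and 5.15, 3.22 and 4.63 in the nominal double mutant. In the nominal triple mutant it held 30.5, 39.3 and 23.6 CPM and in emf1 4.87, 4.08 and 7.11. All mutants lay above WT, and the nominal triple mutant above all other libraries. AT4G38932 showed 10.2, 15.3 and 11.2 CPM in WT, 25.1, 20.5 and 23.3 in the nominal double mutant, 85.2, 106 and 79.4 in the nominal triple mutant and 34.3, 36.3 and 41.9 in emf1. HB16 differed little, with means of 74.2 ± 4.17 CPM in WT, 92.6 ± 6.03 in the nominal double mutant, 112 ± 7.15 in the nominal triple mutant and 70.9 ± 4.42 in emf1 (SD, n = 3). Its call in the nominal double mutant did not survive leaving out WT replicate 1 or 3 or any single library of that mutant.

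The loci lower in both were CESA2, PnsL4, TPPH, SK2, AT4G38980, AT4G39930, the kinesin gene AT4G39050 and AT4G39040. The calls of TPPH, AT4G39050 and AT4G39930 against emf1 were lost when only the nominal triple mutant and emf1 were fitted (adjusted p of 0.051, 0.057 and 0.070, edgeR). AT4G39040 codes for a protein with a CRM RNA-binding domain, and its level is uncertain because it overlaps a gene on the opposite strand. SK2 (AT4G39540) held 46.2, 50.4 and 51.9 CPM in WT and 38.4, 38.8 and 35 in the nominal double mutant, and 62.5, 62.6 and 54.9 in emf1 and 44.9, 40.6 and 42.1 in the nominal triple mutant. In each kit the mutant with the shl label held the lower values, without overlap. The locus with opposite directions was AT4G39675, an uncharacterised gene, which is described with lhp1. Against WT, across the kits, the nominal triple mutant had 79 of 114 loci called (37 higher and 42 lower), which was 69.3% against 70.3% of all tested loci (34.6% higher and 35.7% lower). Under upper-quartile scaling these were 29 higher and 51 lower.

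**Figure D3:**
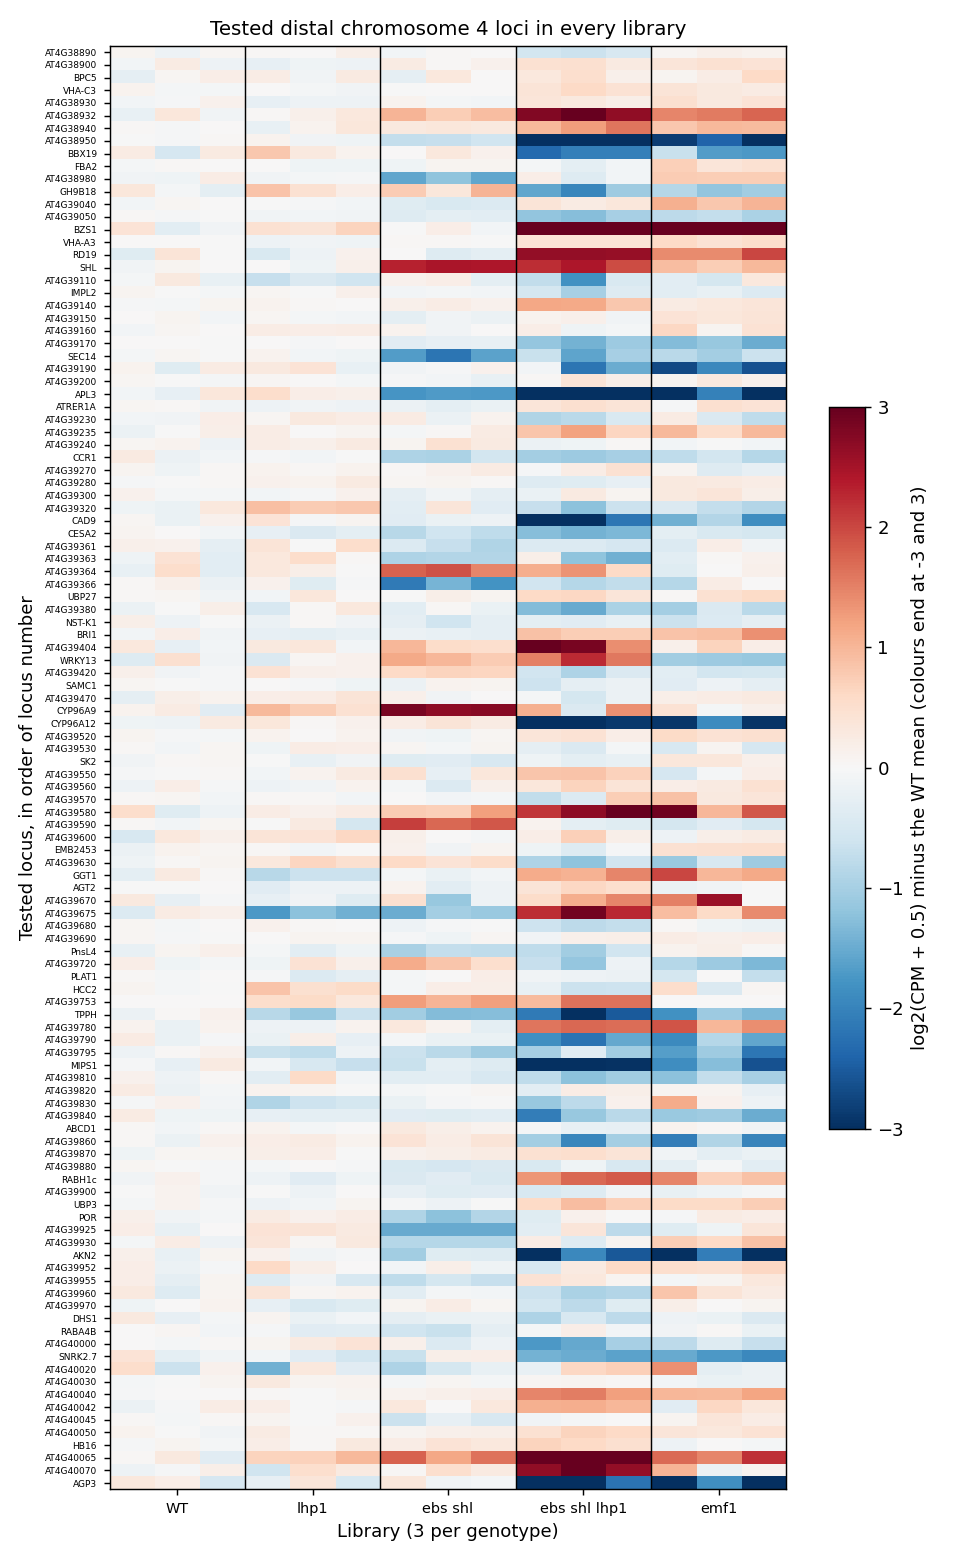
Colours show log2(CPM + 0.5) minus the WT mean for the 114 tested loci (rows, in order of locus number) in each of the 15 libraries (columns, 3 per genotype); red is higher and blue lower than WT, and colours end at -3 and 3. The libraries of the nominal triple mutant and emf1 differ from WT at many loci along the whole stretch. Those of the nominal double mutant differ at fewer loci, SHL, CYP96A9 and APL3 among them, and those of lhp1 at few.

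The comparison of lhp1 with WT was made within a single kit. It shares the WT libraries with the contrasts given as description, and whether its results played a part in the choice of loci is not known. AT4G39675 was the only called locus, 0.877% of 114, against 1.31% of all tested loci (0.772% higher and 0.542% lower). It stood at 3.51, 5.8 and 5.4 CPM in WT and 1.11, 1.74 and 1.46 in lhp1, without overlap, and fell 3.36-fold (log2 fold change -1.75, SE 0.32; adjusted p = 0.012, edgeR). Leaving out WT replicate 2 or 3, or lhp1 replicate 1 or 3, ended the call (adjusted p of 0.054 to 0.066, edgeR). In the nominal double mutant the same gene held 1.38, 2.12 and 1.95 CPM, in the nominal triple mutant 24, 39 and 24.9 and in emf1 9.5, 7.43 and 13.6. The within-kit comparisons thus gave it a lower level in lhp1 and the nominal double mutant than in WT and a higher one in the nominal triple mutant than in emf1.

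No locus rose in lhp1 by this test. At an unadjusted p under 0.05, 12 loci differed, 7 higher and 5 lower, or 10.5% against 10.8% of all tested loci (5.57% higher and 5.25% lower). DESeq2 called 3, all lower, or 2.63% against 2.56% of all loci for which it gave an adjusted p (1.29% higher and 1.27% lower). SHL had a mean of 41.4 ± 3.89 CPM in lhp1 and 41 ± 2.77 in WT (SD, n = 3; log2 fold change 0.01, SE 0.12; adjusted p = 0.98, edgeR). TPPH held 11, 8.71 and 12.6 CPM in lhp1 against 17.6, 20.4 and 22 in WT, a log2 difference of -0.89 (SE 0.28) that did not pass the threshold (adjusted p = 0.2, edgeR). CESA2 was -0.33 from WT on the log2 scale (SE 0.09; adjusted p = 0.12, edgeR). The groups did not overlap in 29 loci, 25.4% of 114, against 20.4% of all tested loci. The median log2 fold change of the 114 was 0.03, against 0.0031 for all tested loci.

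The comparison of emf1 with WT shares the WT libraries too and differs in RNA kit, and the same doubt on the choice of loci holds for it. Of 114 loci 69 were called, 36 higher and 33 lower, or 60.5% against 64.6% of all tested loci (30.7% higher and 33.9% lower). Under upper-quartile scaling the same count split into 26 higher and 43 lower. That scaling moved the median of all tested loci from -0.03 to -0.20 in this comparison, from -0.03 to -0.20 between the nominal triple and double mutants, and from -0.02 to -0.19 between the nominal triple mutant and WT. The largest rise among called loci was that of BZS1 (AT4G39070), a B-box transcription factor gene of light and brassinosteroid responses, with 0.846, 0.305 and 0.44 CPM in WT and 10.8, 12.7 and 29.9 in emf1 (log2 fold change 5.03, SE 0.43; adjusted p = 6.4e-07, edgeR). BZS1 overlaps AT4G39060 on the opposite strand, so its level is uncertain, although AT4G39060 itself held only 5 counts in emf1 and 0 in WT.

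RD19 (AT4G39090), a cysteine protease gene responsive to drought, rose from 82.9, 139 and 107 CPM in WT to 285, 289 and 434 in emf1 (3.06-fold; adjusted p = 1.7e-05, edgeR). GGT1 (AT4G39640), which codes for a glutathione-degrading enzyme, rose from 20.0 ± 3.99 to 54.8 ± 22.9 CPM (SD, n = 3). BRI1 (AT4G39400), the brassinosteroid receptor gene, stood at 143, 174 and 140.0 CPM in WT, 128, 123 and 129.7 in lhp1, 135, 129 and 126 in the nominal double mutant, 279, 252 and 252 in the nominal triple mutant and 272, 284 and 392 in emf1. It rose 2.08-fold in emf1 (SE 0.13 on the log2 scale; adjusted p = 8.9e-06, edgeR), and all 6 libraries of the second kit lay above the other 9.

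Among called loci with 5 CPM or more in either genotype and no overlap, the largest falls in emf1 were those of AGP3, APL3, AT4G38950, AKN2, CYP96A12 and MIPS1. AGP3 (AT4G40090), an arabinogalactan protein gene at the end of the stretch, held 6.23, 5.68 and 3.33 CPM in WT and 0, 1.02 and 0 in emf1. AKN2 (AT4G39940), an APS kinase gene of sulfate assimilation, held 99.4, 75.8 and 93.6 CPM in WT and 10.7, 20.9 and 7.38 in emf1 (log2 fold change -2.77, SE 0.35; adjusted p = 1.5e-05, edgeR). MIPS1 (AT4G39800), the gene of an enzyme that makes myo-inositol phosphate, fell from 439.7, 384 and 546 to 124, 186 and 73.8 CPM (3.56-fold; adjusted p = 0.00056, edgeR). APL3, already low in the nominal double mutant, fell 8.63-fold in emf1 (log2 fold change -3.11, SE 0.39; adjusted p = 1.3e-05, edgeR). In all of these the emf1 libraries lay below all WT libraries. The nominal triple mutant held AGP3 at 0, 0 and 0.66 CPM, AKN2 at 8.56, 22.9 and 14.9 and MIPS1 at 39.7, 17.7 and 57, each below all WT, lhp1 and nominal double mutant libraries.

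By position, emf1 had 15 of 17 tested loci called from AT4G38890 to AT4G39090 (11 higher and 4 lower), and 13 of 19, 9 of 17, 11 of 18, 11 of 20 and 10 of 23 in the 5 stretches that follow, where 64.6% of all tested loci were called (30.7% higher and 33.9% lower). From AT4G39710 to AT4G39900 there were 2 higher and 9 lower. Differences between stretches were not tested, and the split moved with the scaling. Under upper-quartile scaling it was 9 higher and 4 lower in the first stretch and 2 and 12 from AT4G39710 to AT4G39900. From SHL to AT4G39300 it went from 7 higher and 6 lower to 3 and 7, from AT4G39510 to AT4G39700 from 8 and 3 to 6 and 5, and from AT4G39910 on from 6 and 4 to 5 and 7. The median log2 fold change was 0.40 in the first stretch and -0.22 from AT4G39710 to AT4G39900, where it was -0.03 over all tested loci.

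**Figure D4:**
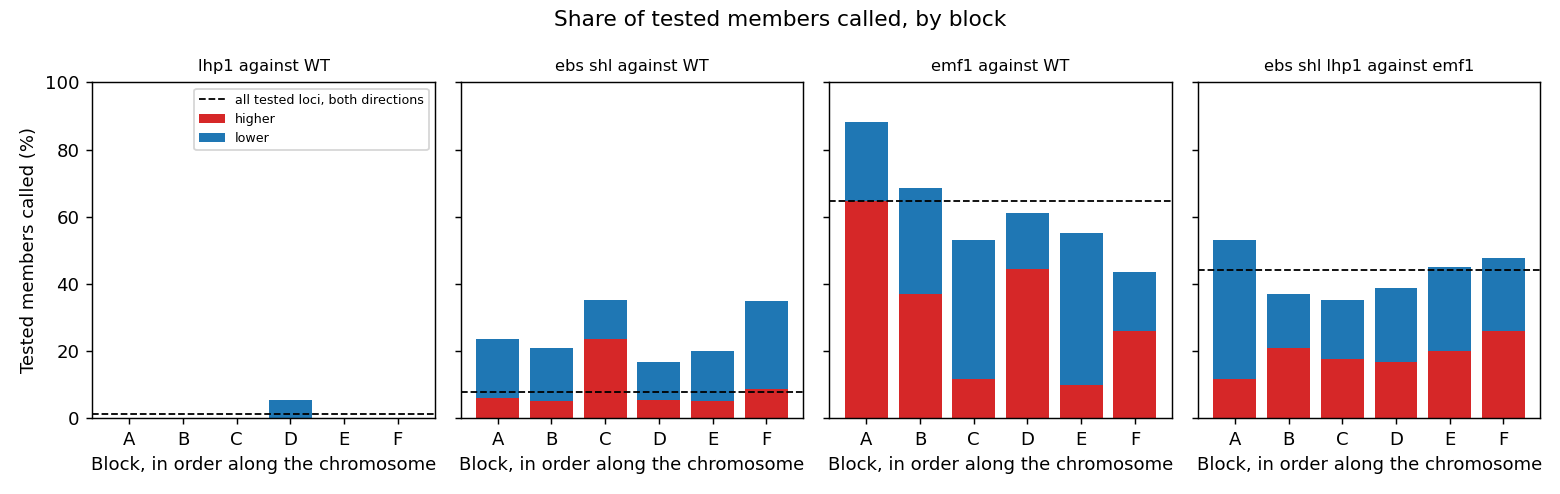
Percent of tested loci called (bars, red higher and blue lower, axis from 0) in 6 stretches in order along the chromosome, A from AT4G38890, B from SHL, C from AT4G39310, D from AT4G39510, E from AT4G39710 and F from AT4G39910, in 4 comparisons; dashed lines give the percent over all tested loci. Stretch D holds the only call of lhp1. The loci were chosen with the nominal double mutant against WT known, so the height of its bars beside the dashed line is a description.

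The nominal triple mutant was last compared with the nominal double mutant, across the kits. This comparison shares its libraries with the contrasts given as description, so loci singled out for their level in the nominal double mutant could differ here for that reason alone. Of 114 loci 85 were called, 45 higher and 40 lower (35 and 47 under upper-quartile scaling), or 74.6% against 68% of all tested loci (32.8% higher and 35.2% lower). The difference between these mutants minus that between lhp1 and WT was called at 69 loci, 35 above and 34 below 0, or 60.5% against 56.9% of all tested loci (26.6% above and 30.3% below). Under upper-quartile scaling these were 26 above and 40 below. The loci named next were not called between the nominal double mutant and WT. BZS1 rose from 0.503, 0.658 and 0.446 to 22.1, 29.5 and 26.7 CPM (log2 fold change 5.60, SE 0.43; adjusted p = 2.5e-07, edgeR). RD19 rose from 108, 81.7 and 87.3 to 666, 673 and 655 CPM (7.18-fold; adjusted p = 2.5e-07, edgeR), and RABH1c (AT4G39890), a small GTPase gene, from 1.23 ± 0.0782 to 6.66 ± 1.29 CPM (SD, n = 3). AT4G40070, a RING-type gene, stood at 1.45, 2.19 and 1.78 CPM in the nominal double mutant, 11.4, 16.9 and 11.2 in the nominal triple mutant and 3.32, 1.17 and 1.51 in emf1, so that the nominal triple mutant lay above emf1 as well.

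CYP96A12 fell from 54.9, 60.8 and 55.7 to 1.77, 2.47 and 5.81 CPM between these mutants (16.2-fold; adjusted p = 6.1e-07, edgeR). AT4G38950, a kinesin-like motor gene, fell from 60.2, 61.7 and 66 to 4.84, 3.42 and 8.45 CPM and stood at 13.4, 18.4 and 9.34 in emf1. Its WT libraries held 99.4, 97.6 and 102 CPM, all above those of the nominal double mutant, although that difference was not called. CAD9 (AT4G39330), of the cinnamyl alcohol dehydrogenase family, fell from 285, 314 and 320.1 to 41.7, 34.4 and 79.1 CPM (5.9-fold; adjusted p = 4.7e-06, edgeR). BBX19 (AT4G38960), a B-box gene that acts in light signalling and flowering, fell from 13.1 ± 1.46 to 2.29 ± 0.289 CPM (SD, n = 3; adjusted p = 1.7e-05, edgeR), opposite to the B-box gene BZS1. Both B-box genes kept these directions in emf1 against WT.

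The groups below were put together by hand with earlier results of these data known, and their counts are to be set beside the shares of all tested loci, 30.7% higher and 33.9% lower in emf1 and 32.8% higher and 35.2% lower between the nominal triple and double mutants. With so few members in a group, the counts describe these genes and show nothing particular to the group. Of the 10 kelch-repeat genes listed, AT4G39753 and AT4G39760 not among them although they carry the same annotation, 8 were tested. Of these 8, 2 rose and 1 fell in emf1 (median log2 fold change 0.20) and 4 rose and 2 fell between the nominal double and triple mutants (median 0.49), where all tested loci had medians of -0.03 and -0.03. With upper-quartile scaling 3 rose and 2 fell between these mutants, and the counts in emf1 stayed the same. AT4G39753 was not called in either comparison and AT4G39760 was not tested. In emf1, AT4G38940 and AT4G39580 rose, while AT4G39590 held 1 count against 11 in WT, a ratio of 8.54 (95% counting interval 1.24 to 368). A further list of 6 held SHL, BPC5, the histone H3 genes AT4G40030 and AT4G40040, AT4G38900, which is annotated as a bZIP transcription factor, and UBP3, annotated as a ubiquitin-specific protease. In emf1 SHL, AT4G38900, UBP3 and AT4G40040 rose and 0 fell (median log2 fold change 0.52), which became 3 higher and 1 lower under upper-quartile scaling. AT4G40040 rose from 258, 267 and 267 CPM in WT to 527, 520.4 and 598 in emf1 (2.08-fold; adjusted p = 6.1e-07, edgeR), with 732, 773 and 618 in the nominal triple mutant. AT4G40030, which lies beside it, stood at 183, 191 and 202 CPM in WT, 181, 168 and 169 in emf1 and 198, 203 and 197 in the nominal triple mutant, and its log2 difference of -0.15 in emf1 (SE 0.08; adjusted p = 0.095, edgeR) did not pass the threshold.

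Of 6 genes of chloroplast and carbon metabolism (FBA2, APL3, PnsL4, AT4G39970, DHS1 and MIPS1), 1 rose and 2 fell in emf1 and 0 rose and 4 fell between the nominal double and triple mutants. Under upper-quartile scaling these were 1 and 3 in emf1 and 0 and 5 between the mutants. The riser was FBA2 (AT4G38970), a plastid aldolase gene, from 2968, 3174 and 3117 CPM in WT to 5048, 3986 and 4201 in emf1 (adjusted p = 0.0007, edgeR). In the nominal triple mutant FBA2 held 2961, 2513 and 2932 CPM. In 1 of the 114 tested loci (0.877%) lhp1 and the nominal triple mutant together lay apart from the other 9 libraries. The share of all tested loci was 0.186% in either direction (0.083% lower), and nothing is read from a single locus. This locus was AT4G39970, lower in both. It held 65.9, 72 and 77.6 CPM in WT, 60.1, 51.9 and 56 in lhp1, 76.1, 83.2 and 74.4 in the nominal double mutant, 48.9, 41.7 and 56.1 in the nominal triple mutant and 80.5, 71.9 and 75.8 in emf1, and was not called in lhp1 (adjusted p = 0.15, edgeR). It overlaps AT4G39960 on the opposite strand, so its level is uncertain.

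All 3 tested genes of cell wall and expansion (GH9B18, CESA2 and AGP3) fell in emf1 and between the nominal double and triple mutants, with medians of -1.52 and -3.23. Both vacuolar ATPase genes, VHA-A3 and VHA-C3, rose in emf1 (1 of them under upper-quartile scaling), by 0.52 and 0.31 on the log2 scale, and VHA-C3 overlaps BPC5 on the opposite strand. Of 3 tested genes of glutathione and redox, GGT1 rose and CAD9 fell in emf1. Of 4 hormone receptor and kinase genes, BRI1 rose and SNRK2.7 (AT4G40010) fell (1 higher and 2 lower under upper-quartile scaling), the latter gene by 4.75-fold from 3.9 ± 1.15 CPM in WT (SD, n = 3; adjusted p = 5.9e-05, edgeR). None of the listed family members was called in lhp1, as its only called locus belongs to none of them.

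The 31 untested loci had 0 to 42 counts per genotype, 8 of them with none in any library. Some were listed with more counts in single genotypes, summed over 3 libraries and given without a test. RL1 (AT4G39250), a RADIALIS-like gene, held 42 counts in WT, 15 in lhp1, 9 in the nominal double mutant, 0 in the nominal triple mutant and 2 in emf1. The nominal double mutant held 19 counts of GGT2 (AT4G39650) and 19 of the glycosyl hydrolase gene GH9B17 (AT4G39000), where WT held 2 and 4 and the nominal triple mutant 2 and 1.

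As a description, stretches of 60 loci on either side of the other named genes were counted the same way in the nominal double mutant against WT. Each stretch included the named gene itself. Around EBS 12 of 83 tested loci were called (14.5%), 4 higher and 8 lower. Around LHP1 they were 5 of 88 (5.68%), 3 higher and 2 lower, and around EMF1 6 of 92 (6.52%), 2 higher and 4 lower. Of all tested loci 7.83% were called (5.31% higher and 2.52% lower). The stretch around SHL was chosen with its share of calls in this contrast known, so that share cannot be tested against theirs. These stretches were placed by the named genes, with earlier results of these data known too. Just outside the stretch on the side of the centromere, the tested loci AT4G38870 and AT4G38860 had means of 0.0820 and 20.1 CPM in WT and 0.491 and 21.5 in the nominal double mutant. ASE3 (AT4G38880), which lies nearest, stood at 0.0604 and 0.195 CPM. Just inside it, AT4G38890 held 54.2 ± 4.61 CPM in WT and 53.4 ± 2.38 in the nominal double mutant, and no tested locus lay beyond AGP3 at the other end, where WT held 5.08 ± 1.54 CPM and the nominal double mutant 5.23 ± 1.03.

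Over the 5 genotype means of log2(CPM + 0.5), the tested loci most like SHL were AT4G04320 (r = 0.993), TIF3C2 (0.992), AT2G12190 (0.991), AT5G51340 (0.988) and AT2G44735 (0.988), none of them near SHL. AT4G04320 stood at means of 18.0 CPM in WT, 18.4 in lhp1, 23.5 in the nominal double mutant, 22.7 in the nominal triple mutant and 19.5 in emf1. Among the neighbours of SHL, the closest were AT4G39364 (r = 0.890) and AT4G39753 (0.846), and the most opposite were AT4G39900 (-0.989), annotated as an adenine deaminase, and AT4G39880 (-0.983), of a ribosomal protein family. These values describe 5 points that share libraries and are given without a test.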

How the data were processed

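The values are raw counts of reads per annotated locus as the authors deposited them, 1 table per library with 33602 loci. Per the labels' protocols a stranded mRNA library kit was used. The submitters' processing notes name the TAIR10 build and the tools TopHat2 2.1.1, HTSeq and edgeR. The strand setting of the counting is not given in the sources used here, and 23 of the 145 loci overlap a gene on the opposite strand. Gene names and order came from TAIR10.1 (144 loci matched), a later release than the build counted on, so neither coordinates nor sequences are given. BLAST 2.17.0 found a close copy elsewhere (identity of 95% across 50% of the length) for 10 loci.

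The analysis used edgeR 4.0.16 and limma 3.58.1 in R 4.3.3. Loci were kept by filterByExpr, scaled with TMM factors (0.817 to 1.15) and fitted over all 15 libraries with 1 mean per genotype and the quasi-likelihood F test. P-values were adjusted by Benjamini-Hochberg over the 20477 tested loci at a threshold of 0.05. The biological coefficient of variation was 16.4%. Chi-square over degrees of freedom was 4.33 to 25.3 for the pairs of repeats, so none was counted as a duplicate. The fit was tested on simulated counts. CPM values were computed from the deposited counts, and floors and counting intervals (95%) cover counting error only.

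The loci, family lists and comparisons were chosen with earlier results of these data known. Named loci are SHL, per comparison the 6 largest rises and 6 largest falls among called loci with 5 CPM or more and no overlap, all calls in lhp1, and per list the largest call in the nominal double mutant and its most abundant member per length. Other loci were chosen after their values were seen. Alternatives were DESeq2 1.42.0 (size factors, Wald test), upper-quartile scaling, no filter, fits of only the genotypes compared, a replicate block, and each library left out.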

Additional observations from a re-analysis of the deposited data

Results flagged for a closer look

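For 33 named loci the log2 difference between the nominal triple and double mutants minus that between lhp1 and WT passed the threshold of edgeR's test (adjusted p under 0.05). This quantity contains the difference between the nominal double mutant and WT. Loci named for their level in the nominal double mutant, such as CYP96A9, AT4G39590, APL3, POR, AT4G38980, AT4G39366, SEC14 and AT4G39925, could therefore have a large value from that choice alone, and their values are a description. Over all members 69 of 114 passed, 60.5% against 56.9% of all tested loci. Of these 4 genotypes the nominal triple mutant alone had its RNA isolated with the second kit, so kit and genotype cannot be told apart here, and LHP1 transcript was lower in lhp1 but not in the nominal triple mutant.

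The difference was more positive on the ebs shl background for AT4G39675 (5.75), BZS1 (4.8), RD19 (3.01), RABH1c (2.72), AT4G40070 (2.68), GGT1 (2.11), AT4G40065 (1.84), AT4G38932 (1.82), AT4G39780 (1.70), AT4G38980 (1.58), AT4G39366 (1.36), BRI1 (1.27), AT4G40040 (1.24), SEC14 (1.00), POR (0.81), VHA-C3 (0.54) and AT4G39520 (0.32). It was more negative there for CYP96A12 (-4.19), AGP3 (-4.13), AT4G39590 (-3.72), AT4G38950 (-3.41), BBX19 (-2.91), CYP96A9 (-2.81), CAD9 (-2.72), MIPS1 (-2.71), APL3 (-2.20), AKN2 (-1.96), AT4G39420 (-1.52), AT4G39170 (-0.96), AT4G39960 (-0.84) and AT4G39240 (-0.59). Values for AT4G39925 (5.94) and AT4G39753 (-4.11) rest on groups with 0 counts and depend on the prior count of the fit. BZS1, SEC14, AT4G39170, AT4G39240, AT4G39960 and VHA-C3 overlap a gene on the opposite strand, so their levels are uncertain.

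Among the loci with counts in all 4 genotypes, AT4G39675 had the largest value. Its level went from 3.51, 5.8 and 5.4 CPM in WT to 1.11, 1.74 and 1.46 in lhp1, and from 1.38, 2.12 and 1.95 in the nominal double mutant to 24, 39 and 24.9 in the nominal triple mutant. RABH1c went from a mean of 1.8 ± 0.195 CPM in WT to 1.48 ± 0.153 in lhp1, and from 1.23 ± 0.0782 in the nominal double mutant to 6.66 ± 1.29 in the nominal triple mutant (SD, n = 3).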

How the results depend on the processing

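Counts of called loci among the 145 stayed within 1.5 times the reported ones under most settings. Exceptions were lhp1 against WT, with 3 calls by DESeq2's Wald test, 3 when only the genotypes compared were fitted and 0 to 1 when single libraries were left out, and the nominal triple mutant against emf1, with 32 against 49 when only these genotypes were fitted. Leaving out single libraries gave 62 to 69 calls for emf1, 77 to 85 between the nominal triple and double mutants, 22 to 28 for the nominal double mutant, and 43 to 49 for the nominal triple mutant against emf1. Against WT the nominal triple mutant then had 74 to 80. The replicate block gave 1 call in lhp1, 65 in emf1, 84 between the nominal triple and double mutants, 28 in the nominal double mutant, 80 in the nominal triple mutant against WT and 46 against emf1. It ended the call of HB16 in the nominal double mutant. The deviations of same-numbered libraries correlated at -0.38 to 0.24 over 30 pairs, with 4 over 0.1, so the main fit did not treat them as pairs. Libraries of different genotype and number correlated at -0.40 to 0.37. Whether libraries of any number shared a batch was not tested. Of 103 results for named loci, 88 kept direction and side of the threshold under every setting and 0 reversed. Calls in the nominal double mutant were lost without 1 library for HB16, TPPH, AT4G39050, WRKY13, SK2, AT4G39675, AT4G39955, RABA4B and AT4G40045, and the cause was not tested. The call of AT4G39930 in the nominal triple mutant against emf1 was lost in 6 settings. Loci with few counts, such as AT4G39753 and AT4G39925, are limited by depth.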
